A study of Drosophila melanogaster with 47 samples.

Results

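Chemosensory receptors were followed in RNA from fly heads: the odorant receptors (Or), the gustatory receptors (Gr), and the ionotropic receptors (Ir). The members were the rows of the count table whose symbol is Or, Gr, or Ir followed directly by a digit, together with *Orco*. This gave 180 genes, 60 in each class, of 17137 genes listed. A gene was kept when at least 10 reads were counted in 5 or more libraries, which left 46 receptors, 18 Or with *Orco* among them, 15 Gr, and 13 Ir. By the same rule 10546 of all genes were kept. The other 134 receptors had a median of 29.5 reads summed over all libraries, and none of the 180 was at 0 in every library.

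Poly(A) RNA came from the heads of male and female *Drosophila melanogaster* kept for 4 d in 12:12 LD (12 h of light and 12 h of dark) at 25 °C and sampled every 4 h from ZT2 to ZT22, where ZT0 is lights on. The control was *yw*, with 11 libraries, 2 per time point and 1 at ZT18. The 4 deletion strains carry CRISPR-made deletions at *timeless* (*tim*), a core gene of the circadian clock, on the second chromosome, and were homozygous. *tim_up126* and *tim_up122* (12 libraries each) lack the upstream E-box and E-box-like motifs, *tim_up10* (6 libraries) lacks the upstream E-box alone, and *tim_in24* (6 libraries) lacks the E-box in an intron. A canonical E-box arose by accident in *tim_up126*. The E-box is the motif bound by the CLK:CYC activator, and the names give the side and the size of the deletion in base pairs. Each deletion is represented by 1 stock, and all 4 were set against the same *yw* libraries, so an effect of the deletion cannot be told apart from other differences between the stocks.

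Libraries held 1761896 to 10230355 counts, and 1 count was worth 0.0932 to 0.573 CPM, the depth-scaled unit used throughout (counts relative to library totals adjusted by TMM). As a check of the labels, *tim* over the day was lower than in *yw* by 2.20 on the log2 scale in *tim_up126*, by 1.04 in the *tim_up122* libraries, and by 0.88 in *tim_up10*, and did not pass the test in *tim_in24* (log2 fold change -0.06, edgeR adjusted p = 0.82). The neuronal marker *elav* (144 to 315 CPM) and the rhodopsin gene *ninaE* (16666 to 31892 CPM) were high in all 47 libraries, and male accessory gland genes summed to at most 2.60 CPM. Digestive enzyme genes of the gut summed to 18.3 to 318 CPM in 4 libraries, 2 of *yw* and 2 of *tim_up126*, and to at most 1.46 CPM in the other 43.

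Odorant receptors are expressed in neurons of the antenna and the maxillary palp, where each works as a complex with the shared co-receptor *Orco*. Ionotropic receptors, which derive from ionotropic glutamate receptors, sense acids and amines, and also humidity and temperature, with the co-receptors *Ir25a*, *Ir8a*, *Ir76b*, and *Ir93a*. Gustatory receptors sense sugars and bitter compounds in the mouthparts and legs, and a pair of them senses carbon dioxide in the antenna. In a whole head these neurons are few, and in such RNA fewer neurons of a type and less RNA per neuron cannot be told apart.

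The counts of several receptors are shared with a neighbouring gene. The library kit does not mark strand, so reads from genes on opposite strands cannot be told apart where they overlap. Of the 46 receptors, 21 share exon bases with another gene, 13 of them over at least 50% of their exon length, and 7 of the 46 lie in an intron of another gene. *Gr64b* and *Gr64c* had identical counts in 47 of 47 libraries, as had *Or10a* and *Gr10a*, and the 46 rows held 44 distinct measurements. *Gr64d* and *Gr64e* were identical in 41 libraries. *Ir75d* was identical to its neighbour *COX6AL2* in 31. The pairs with identical counts are each described as 1 measurement. Of the 46, 33 reached 10 reads in at least 1 library of every strain, and 1 did so in a single strain.

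Levels between genes were compared per kilobase of exon, as the mean over all libraries. The highest was *Ir85a* (17.2 ± 4.63 CPM per kb, SD, n = 47), a receptor with 232 of its 2139 exon bases opposite *Pif1A* and *Pif1B* on the other strand. It was followed by *Or43b*, an antennal odorant receptor (15.1 ± 2.18), *Ir76a*, an antennal amine receptor (13.5 ± 1.44), and *Orco* (11.8 ± 4.63). The spreads of these 4 overlap. *Or43b* and *Ir76a* also overlap other genes on the opposite strand, *Cul1* over 575 bases and *CG14102* over 297. *Ir62a* (7.80 ± 1.55), *Or82a* (4.64 ± 1.54), and *Or63a* (4.43 ± 0.994) came next. Among the gustatory receptors, *Gr43a*, the fructose receptor, was highest (3.13 ± 0.819 CPM per kb). *Or49b*, an antennal receptor for phenolic odorants, was among the lowest of the 46, at 0.376 ± 0.489 CPM per kb.

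Of the co-receptors, *Orco* had the widest range in CPM. It lay between 9.49 and 41.1 CPM in *yw* (median 28.4), 13.9 and 53.3 in *tim_up126* (20.7), 12.7 and 33.2 in the *tim_up122* libraries (22.3), 11.5 and 25.7 in *tim_up10* (15.7), and 14.3 and 26.6 in *tim_in24* (19.4). The groups overlapped throughout. *Ir25a*, the most widely used Ir co-receptor, had medians of 9.61 to 11.5 CPM in the 5 strains. *Ir76b*, which serves amine sensing and taste, had medians of 5.64 CPM in *tim_up10* and 7.22 to 8.74 in the others. *Ir93a*, needed for humidity and cool sensing, had medians of 0.765 to 1.70 CPM. *Ir8a*, the co-receptor of acid-sensing Irs, did not pass the count rule, reaching 10 reads in 1 library. The pair *Gr21a* and *Gr63a*, the carbon dioxide receptor, also did not pass (at most 6 and 11 reads in a library). The receptor just inside the rule was *Or1a*, with 10 reads in 5 libraries, and *Gr58c*, *Or22b*, *Or45a*, and *Or9a* were just outside, with 4 libraries each.

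To ask which receptors differed from *yw*, each deletion strain was compared with it over the day, as the mean of the 6 time points in an edgeR quasi-likelihood fit over all libraries, with p-values adjusted over the 10546 genes. In *tim_up126*, 10 of the 46 receptors were called (21.7%), 5 higher and 5 lower, where 26.5% of all genes tested were called. In *tim_up122*, 16 were called (34.8%), 6 higher and 10 lower, against 27.1% of all genes. In *tim_up10* it was 12 (26.1%), 3 higher and 9 lower, against 24.4%, and in *tim_in24* 12 (26.1%), 3 higher and 9 lower, against 26.8%. With DESeq2 the counts were 6, 13, 9, and 7 (13%, 28.3%, 19.6%, and 15.2%, against 21.3%, 21.7%, 19.2%, and 21.6% of all genes), and without the 4 libraries with gut genes 8, 13, 10, and 13 (17.4%, 28.3%, 21.7%, and 28.3%, against 20.2%, 25.4%, 21.2%, and 24.2%). The median log2 fold change of the 46 was 0.00, -0.04, -0.20, and -0.12 in the same order, and that of all genes was -0.01, 0.00, -0.03, and -0.03. By class, the receptors called were 8 Or, 1 Gr, and 1 Ir in *tim_up126*, 8, 4, and 4 in the *tim_up122* libraries, 7, 0, and 5 in *tim_up10*, and 6, 3, and 3 in *tim_in24*. In all, 24 receptors were called in at least 1 strain and 22 in none, and no receptor was called in both directions. The same counts over all genes were not made, nor was that of genes called in all 4 strains. These numbers therefore give no comparison with other genes.

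**Figure D1:**
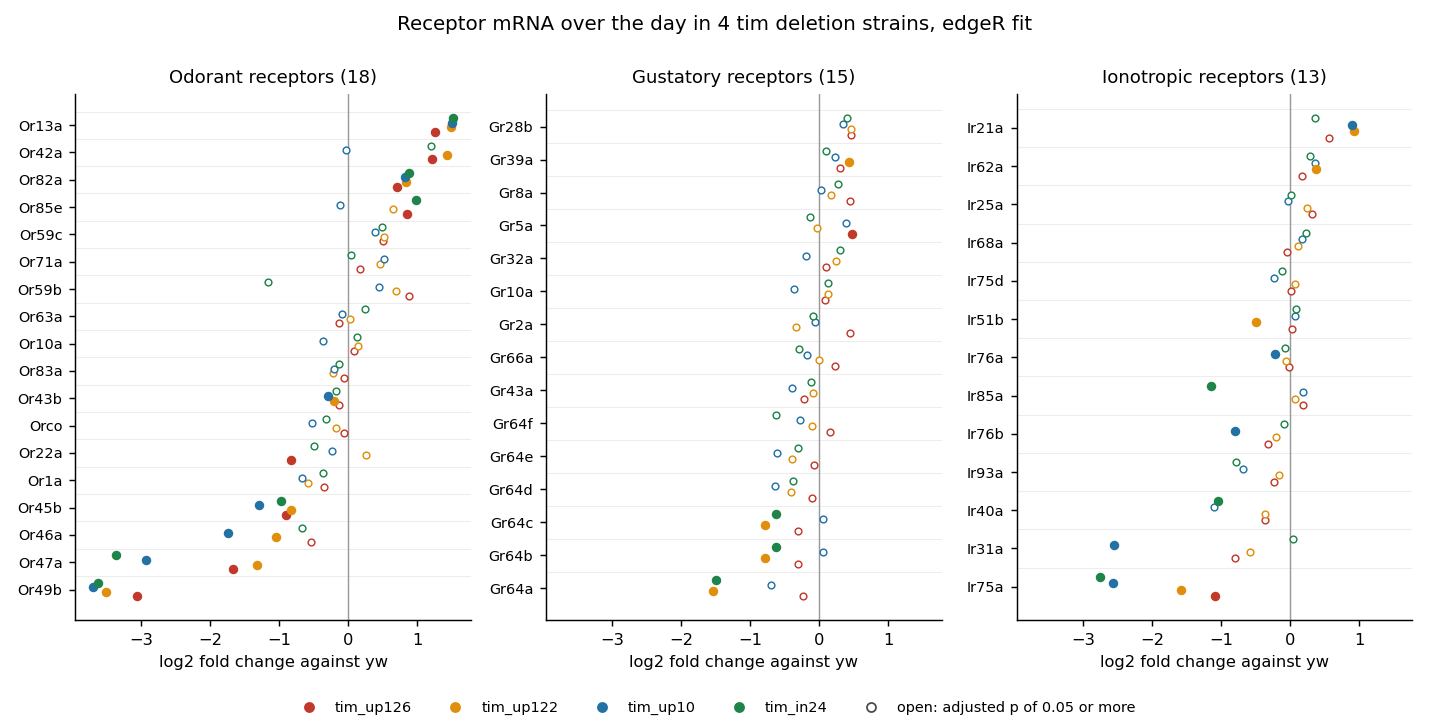
Log2 fold change against *yw* over the day (x axis) of the 46 receptors (y axis, by class), 1 point per deletion strain. Filled points have an edgeR adjusted p under 0.05, open points do not. *Or49b*, *Or47a*, *Or45b*, and *Ir75a* lie left of 0 and *Or13a* and *Or82a* right of 0, filled in all 4 strains.

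The libraries with replicate number 1 and those with number 2 stood apart within 2 strains. Between the numbers, 13.2% of all genes differed in *tim_up126* and 4.8% in *tim_up122*, against 0.0379% in *yw* (edgeR). Among the receptors *Ir85a* and *Gr39a* differed in *tim_up126* and *Ir85a* in *tim_up122*. The 6 neuronal marker genes summed to 3570 to 3772 CPM in the number 1 libraries of *tim_up126* and to 4347 to 4933 in those with number 2. In *tim_up122* it was the reverse, 4228 to 4815 CPM for number 1 and 3780 to 4160 for number 2. Libraries of 1 number may therefore not be independent of each other, in which case the p-values over the day are too small, and *tim_up10* and *tim_in24* have number 1 alone. With an effect of the number within each strain, 15, 17, 13, and 12 receptors were called in the 4 strains and *Ir40a* was lost. These were 32.6%, 37%, 28.3%, and 26.1% of the receptors, against 32.2%, 32.3%, 29.4%, and 32.3% of all genes. In the number 1 libraries alone, with an additive model of strain and time, 6, 13, 9, and 13 were called. These were 13%, 28.3%, 19.6%, and 28.3% of the receptors, against 18.5%, 24.7%, 22.2%, and 25.4% of all genes. The calls lost there were *Gr5a*, *Ir75a*, *Or22a*, and *Or47a* in *tim_up126*, *Gr64a*, *Ir51b*, *Ir75a*, *Or43b*, and *Or46a* in *tim_up122*, *Ir31a*, *Ir75a*, *Or46a*, and *Or47a* in *tim_up10*, and *Ir40a* and *Ir75a* in *tim_in24*. Their values kept the same sign, with *Or47a* at -0.87 in *tim_up126* and -1.55 in *tim_up10*, and *Ir75a* at -1.34 to -0.80 in the 4 strains.

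The 6 receptors called in all 4 strains, 4 lower and 2 higher, are described first. Of the 4 lower, *Or49b*, *Or47a*, and *Or45b* lie on chromosome 2R and *Ir75a* on 3L. The second chromosome also carries the deletions and was made homozygous in these stocks. The 2 higher, *Or82a* and *Or13a*, lie on other chromosomes. Whether position has a part in the calls was not tested. The 4 comparisons share the *yw* libraries and are not independent of each other.

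*Or49b* had the largest fitted differences of the 6. It ranged from 0.749 to 3.09 CPM in *yw* (median 2.04), from 0 to 0.938 in *tim_up126* (0.149), from 0 to 0.430 in the *tim_up122* libraries (0.263), from 0 to 0.525 in *tim_up10* (0.263), and from 0 to 0.773 in *tim_in24* (0.206). The *yw* libraries lay above every library of *tim_up122* and *tim_up10*, and overlapped slightly with those of the other 2 strains. Counts summed over libraries were 153 in *yw*, 15 in *tim_up126*, 13 in the *tim_up122* libraries, 5 in *tim_up10*, and 9 in *tim_in24*, which made the pooled level 8.47-, 9.34-, 9.36-, and 6.60-fold lower than in *yw*. The edgeR log2 fold changes were -3.07 ± 0.435, -3.51 ± 0.480, -3.70 ± 0.678, and -3.63 ± 0.648 (SE; adjusted p = 6.6e-06, 3.9e-06, 0.00021, and 0.00013). *Or49b* reached 10 reads in 8 *yw* libraries and in no other, so it entered the list through the strain in which it was high. Without a filter on low counts all 4 calls remained. Only receptors kept by the count rule were read from that fit, so it does not undo the selection. Its exons overlap no other annotated gene.

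*Or47a*, an antennal receptor for fruit esters, ranged from 0.607 to 3.39 CPM in *yw* (median 1.72). Its medians were 0.540 CPM in *tim_up126*, 0.719 in the *tim_up122* libraries, 0.478 in *tim_up10*, and 0.232 in *tim_in24*, where the highest libraries reached 2.29, 1.26, 1.08, and 0.790. The groups overlapped in all 4 comparisons. It reached 10 reads in 5 *yw* libraries, in 1 each of *tim_up126* and *tim_up122*, and in none of the other strains, so it entered the list mainly through *yw*. The 4 calls remained with no filter on low counts, which does not undo this selection. The pooled level was 3.27-, 2.73-, 4.10-, and 5.21-fold lower than in *yw*. The fitted log2 fold changes, which average time points and depend on the prior count where a library is at 0, were -1.68, -1.33, -2.93, and -3.37 (edgeR adjusted p = 0.0013, 0.0060, 0.0032, and 0.00057), the *tim_up122* value moving to -2.20 without its ZT2 replicate 2 and to -2.10 without its ZT18 replicate 2. *Cpr47Ea*, a cuticle protein gene that overlaps *Or47a* by 163 bases on the other strand, was also lower in all 4 strains, with log2 fold changes from -2.13 to -1.44. The part of the overlap in the difference was not tested.

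*Or45b*, known as a larval odorant receptor, lay between 3.68 and 8.24 CPM in *yw* (median 5.29). It lay between 1.25 and 3.75 in *tim_up126* (2.86), 1.43 and 4.95 in the *tim_up122* libraries (3.49), 1.59 and 2.89 in *tim_up10* (2.17), and 1.77 and 4.79 in *tim_in24* (2.35). All *tim_up10* libraries were below all *yw* libraries, and it was lower at 6 of 6 time points in every strain. The log2 fold changes were -0.90 ± 0.138, -0.83 ± 0.139, -1.30 ± 0.196, and -0.98 ± 0.178 (SE; edgeR adjusted p = 1.5e-05, 5.2e-05, 1.7e-05, and 0.00015). All 1191 exon bases of *Or45b* lie opposite the antisense RNA *asRNA:CR45281*, whose own log2 fold changes were -0.70 to -0.56. The counts of the pair cannot be told apart by strand.

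*Ir75a*, an antennal receptor for acetic acid, ranged from 0.850 to 3.79 CPM in *yw* (median 1.70) and had medians of 0.824 in *tim_up126*, 0.569 in the *tim_up122* libraries, 0.643 in *tim_up10*, and 0.455 in *tim_in24*. The groups overlapped, and 2 libraries of each deletion strain were at 0. It reached 10 reads in 6 *yw*, 1 *tim_up126*, and 2 *tim_up122* libraries, so it too entered the list mainly through *yw*. Its calls remained with no filter on low counts, which does not undo this selection. The pooled level was 2.0-, 2.40-, 2.21-, and 2.97-fold lower than in *yw*. The fitted log2 fold changes were -1.08, -1.58, -2.57, and -2.76 (edgeR adjusted p = 0.038, 0.0060, 0.021, and 0.0056). For *tim_up10* an additive model of strain and time gave -1.0 and ended the call (adjusted p = 0.21). The call was also lost with ZT18 left out, by the library of either strain, or without the *tim_up10* library at ZT10 or ZT22 (-2.51 to -1.85). For *tim_up126* the call was lost in 5 of 11 alternatives and on leaving out any of 13 of the 23 libraries, and the value was -1.81 and -1.79 without its ZT2 replicate 2 or ZT14 replicate 2.

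*Or82a*, an antennal receptor for geranyl acetate (chromosome 3R, 4256972 to 4258444 on dm6), was higher. It lay between 1.72 and 4.49 CPM in *yw* (median 3.19), 3.44 and 9.54 in *tim_up126* (5.31), 3.10 and 8.79 in the *tim_up122* libraries (6.05), 4.46 and 7.15 in *tim_up10* (6.27), and 3.80 and 8.35 in *tim_in24* (6.57). The groups overlapped at their edges, and every strain was above *yw* at 6 of 6 time points. The log2 fold changes were 0.71 ± 0.170, 0.83 ± 0.168, 0.82 ± 0.212, and 0.87 ± 0.203 (SE; edgeR adjusted p = 0.0026, 0.00046, 0.0055, and 0.0019). *Or13a*, an antennal receptor for the mushroom odour 1-octen-3-ol (chromosome X, 15974425 to 15976706), ranged from 0.250 to 1.71 CPM in *yw* (median 0.758). Its medians were 1.98, 2.25, 2.45, and 2.55 CPM in the 4 deletion strains, all *tim_in24* libraries were above all *yw* libraries, and the pooled level was 2.34-, 2.60-, 2.77-, and 2.73-fold that of *yw*. The log2 fold changes were 1.26, 1.48, 1.5, and 1.51 (edgeR adjusted p = 0.0015, 0.00020, 0.0023, and 0.00097). Neither gene overlaps another.

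**Figure D2:**
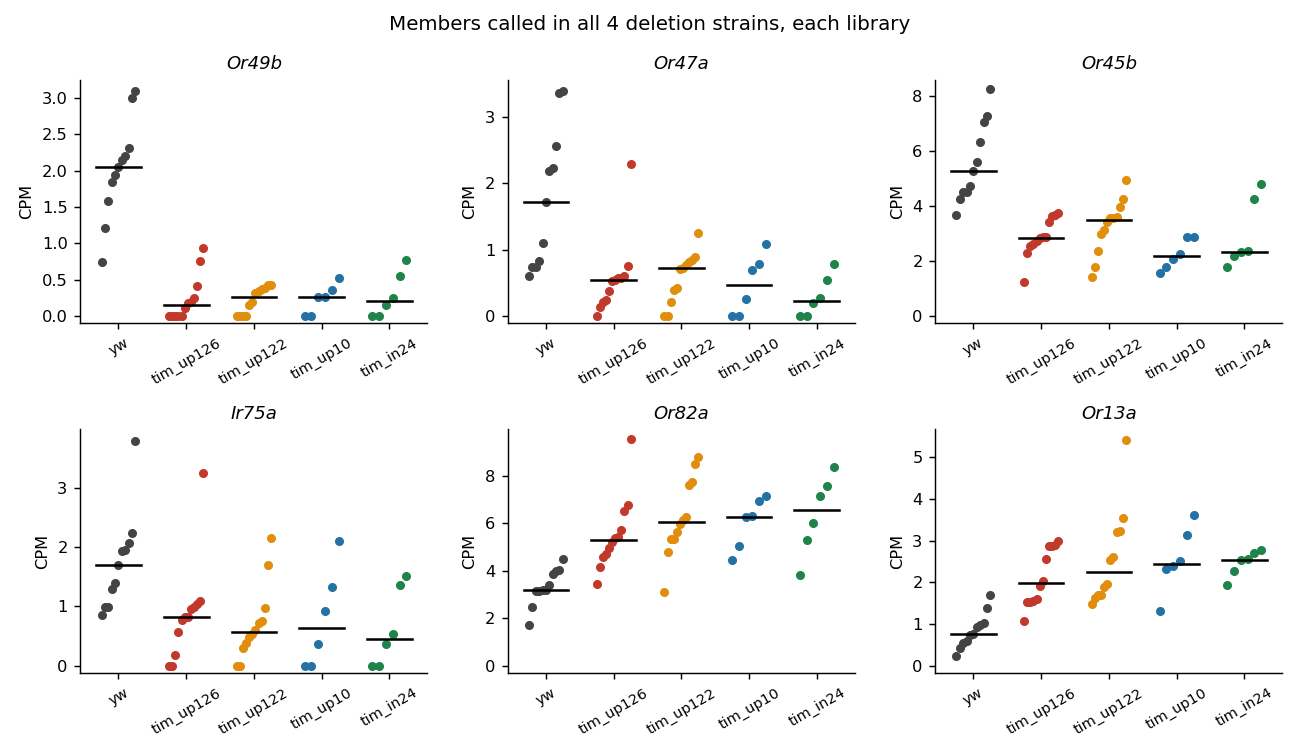
CPM (y axis) of the 6 receptors called in all 4 deletion strains, 1 point per library, sorted within each strain (x axis), with a line at the median. The *yw* points of *Or49b* reach 3.09 CPM and no point of a deletion strain exceeds 0.938, and for *Or13a* the *yw* median of 0.758 lies below every library of the other strains.

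Other odorant receptors were called in some strains only. *Or42a* and *Or85e* are receptors of the maxillary palp. *Or42a* was higher in *tim_up126* (log2 fold change 1.21) and *tim_up122* (1.43) and missed the threshold in *tim_in24* (1.19, edgeR adjusted p = 0.052), with a median of 0.599 CPM in *yw*. No *yw* library held 10 reads of *Or42a*, so it entered the list through strains in which it was high. *Or85e* was higher in *tim_up126* (0.84) and *tim_in24* (0.98), and both calls were lost with DESeq2 and on leaving out any of 6 and 7 libraries. The 7 count the ZT18 libraries of both strains, which give nearly the same contrast when left out. *Or46a*, another palp receptor, ran from 0.749 to 4.74 CPM in *yw* (median 3.03) and was lower in *tim_up122* (-1.06) and *tim_up10* (-1.74). The *tim_up10* value was -0.65 (adjusted p = 0.32) without its ZT10 library, which was at 0, and so with ZT10 out of both strains. Both calls were lost without 1 *yw* library with gut genes, ZT14 replicate 2 (-0.76 and -1.44, adjusted p = 0.10 and 0.077), the first also without *tim_up122* ZT18 replicate 2, and the second also without the *tim_up10* library at ZT6 or ZT14. Its exons lie wholly opposite *asRNA:CR43467*, lower by 1.17 and 1.42 on the log2 scale in those strains. *Or43b* was slightly lower in *tim_up122* (-0.21) and *tim_up10* (-0.30). *Or22a*, an antennal receptor for fruit esters, was lower in *tim_up126* (-0.84) but the call was lost in 5 of 11 alternatives and without *yw* ZT6 replicate 1 or ZT14 replicate 2, or *tim_up126* ZT10 replicate 2 or ZT14 replicate 1 (-0.80 to -0.72). *Or22a* reached 10 reads in 3 *yw* and 5 *tim_up122* libraries and in no other, so it entered the list through strains in which it was higher than in *tim_up126*. *Orco* passed the test in no strain (-0.07, -0.18, -0.53, and -0.33; edgeR adjusted p = 0.84, 0.50, 0.12, and 0.31).

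Among the ionotropic receptors, *Ir85a* (chromosome 3R, 8794684 to 8796966) was lower in *tim_in24* alone of the 4 strains. Its 6 libraries there held 8.53 to 22.5 CPM (median 18), and the 41 libraries of the other strains 26.2 to 55.6. The 6 *tim_in24* libraries thus lay below every other library. The log2 fold change was -1.15 ± 0.144 (SE; edgeR adjusted p = 9.4e-07), and the values in the other strains were 0.07 to 0.19, none of which passed. *Pif1A*, which overlaps the gene on the other strand, fell by 1.08 in *tim_in24* (adjusted p = 3.5e-14), from 1075 to 1300 CPM in *yw* to 471 to 617. How far the overlapping bases carry the difference was not tested.

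*Ir21a*, a cool sensor, was higher in *tim_up122* (0.93, edgeR adjusted p = 0.0015) and *tim_up10* (0.90, adjusted p = 0.014). The second call was lost without the ZT18 library of *yw* or of *tim_up10* (0.73 each). Either omission takes ZT18 out of both strains, so the contrast is nearly the same. *Ir21a* had 0.56 and 0.36 in *tim_up126* and *tim_in24*, neither past the threshold, and 2087 of its 2629 exon bases lie opposite *asRNA:CR43609*. *Ir31a*, an antennal receptor of the acid-sensing group, was lower in *tim_up10*, where the pooled level was 2.81-fold below *yw* (fitted log2 fold change -2.56, edgeR adjusted p = 0.018). The call was lost with ZT18 left out, by the library of either strain, or without the *tim_up10* library at ZT10 (-1.88 to -1.74). *Ir31a* reached 10 reads in 5 *yw* libraries and in 3 of the others, none of them *tim_up10*, so it entered the list mainly through *yw*. The call remained with no filter on low counts, which does not undo this selection. *Ir76b* was also lower in *tim_up10* (-0.80, adjusted p = 0.024), at 1.82 to 8.74 CPM against 5.09 to 12.3 in *yw*. That call was lost with ZT18 left out, by the library of either strain (-0.72 each). It was also lost without the ZT22 library of *tim_up10* (-0.51, adjusted p = 0.20), in which *Ir25a*, *Ir76b*, and *Orco* were each at their lowest for the strain. *Ir76a* in *tim_up10* (-0.22, lost on leaving out any of 11 of the 17 libraries), *Ir51b* in *tim_up122* (-0.49), and *Ir62a* in *tim_up122* (0.38) were also called. *Ir40a*, a receptor of humidity-sensing neurons named after its values were seen, was lower in *tim_in24* (-1.04, edgeR adjusted p = 0.049), a call lost in 7 of 11 alternatives and on leaving out any of 15 of the 17 libraries. *Ir40a* reached 10 reads in 3 *yw* and 3 *tim_up126* libraries and in no other, so it entered the list through strains in which it was higher than in *tim_in24*. The co-receptors *Ir25a* and *Ir93a* passed in no strain.

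The sugar receptors *Gr64a* to *Gr64f* form a cluster on chromosome 3L (4026769 to 4037575), and *Gr5a* lies on chromosome X. *Gr64a* ranged from 0.645 to 2.43 CPM in *yw* (median 1.30), and from 0 to 0.976 in *tim_up122* (0.438) and 0.183 to 0.759 in *tim_in24* (0.430). It was lower in those 2 strains (log2 fold change -1.54 and -1.5; edgeR adjusted p = 0.0011 and 0.0085; without the ZT14 library of *tim_in24* -1.17, adjusted p = 0.063), and its values in *tim_up126* and *tim_up10* (-0.24 and -0.70) did not pass. Without *tim_up122* ZT10 replicate 2 the *tim_up122* value was -2.32. *Gr64a* reached 10 reads in 4 *yw* and 2 *tim_up126* libraries and in no other, so it entered the list through strains in which it was high. Both calls remained with no filter on low counts, which does not undo this selection. The shared row of *Gr64b* and *Gr64c* followed the same split, at -0.79 and -0.62 (adjusted p = 2.9e-05 and 0.0033), and at -0.31 and 0.05 in the others. Its median was 4.51 CPM in *yw*, 4.06 in *tim_up126*, 2.79 in the *tim_up122* libraries, 5.41 in *tim_up10*, and 3.38 in *tim_in24*. *Gr64d* and *Gr64e* (-0.64 to -0.08) and *Gr64f* (-0.63 to 0.15) passed in none. *Gr5a*, the trehalose receptor, was higher in *tim_up126* (0.47, adjusted p = 0.042), a call lost in 7 of 11 alternatives and on leaving out any of 15 of the 23 libraries, with 0.26 without *tim_up126* ZT22 replicate 1. Of its 1490 exon bases, 1108 lie opposite *asRNA:CR44958*. *Gr43a* passed in none. Over the list of 9 sugar receptors, of which 8 were tested, 1, 3, 0, and 3 were called in the 4 strains (12.5%, 37.5%, 0%, and 37.5%, beside 26.5%, 27.1%, 24.4%, and 26.8% of all genes). Each 3 counts *Gr64b* and *Gr64c* apart and is 2 measurements. Of 5 bitter receptors tested 0, 1 (*Gr39a*, 0.43), 0, and 0 were called. The *Gr39a* call was lost on leaving out any of 13 of the 23 libraries.

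The difference between the 2 large upstream deletions was tested directly. In *tim_up126* against *tim_up122*, 5 receptors were called, 10.9% of the 46, against 12% of all genes. *Gr64a* (1.30), *Gr64b* and *Gr64c* (0.48), and *Ir51b* (0.53) were higher in *tim_up126* and *Or22a* (-1.09) lower. With DESeq2 none of these passed (adjusted p = 0.060 to 0.13). In the number 1 libraries alone none of the 5 passed either (edgeR adjusted p = 0.060 to 0.19, each value with the same sign), while *Gr5a* (0.88) was higher and *Gr39a* (-0.67), *Ir21a* (-0.93), and *Ir62a* (-0.48) lower. The value of *Gr64a* rose to 2.08 without *tim_up122* ZT10 replicate 2, and the *Gr64b* call was also lost without *tim_up126* ZT6 replicate 1 or *tim_up122* ZT18 replicate 2 (0.40 and 0.42). The *Gr64a* call was lost without *tim_up126* ZT10 replicate 2 or ZT22 replicate 1 (1.13 and 1.18), that of *Ir51b* without *tim_up126* ZT14 replicate 1 (0.48), and that of *Or22a* without *tim_up122* ZT14 replicate 1 (-0.88). *Gr64a* and *Or22a* entered the list through strains in which they were high, so both calls are subject to that selection.

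**Figure D3:**
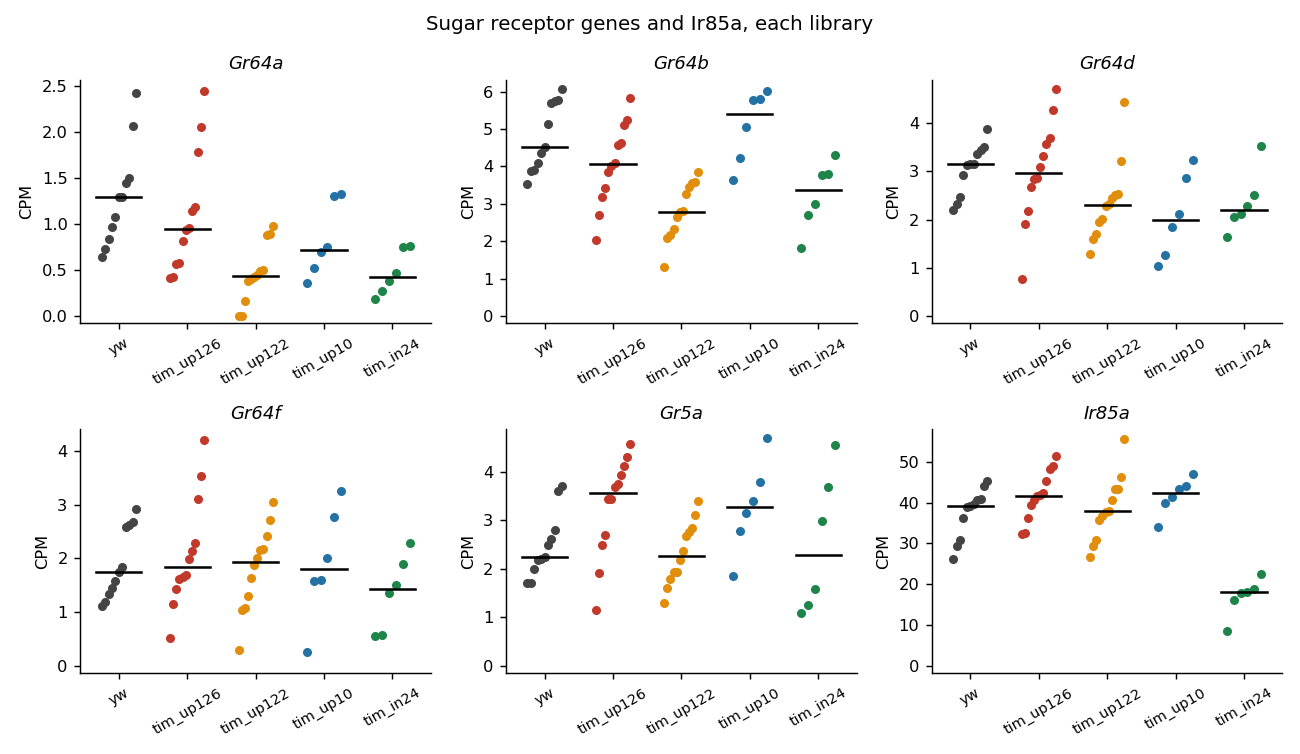
CPM (y axis) of 5 sugar receptor rows and *Ir85a* in each library, sorted within each strain (x axis), with a line at the median. The *tim_in24* points of *Ir85a*, 8.53 to 22.5 CPM, lie below all others, and *Gr64a* in *tim_up122* and *tim_in24* has medians of 0.438 and 0.430 CPM against 1.30 in *yw*.

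Other olfactory and taste genes, outside the 3 receptor classes and of mixed function, were counted as a separate list of 23, of which 21 were tested. Of these, 10, 10, 10, and 13 were called in *tim_up126*, *tim_up122*, *tim_up10*, and *tim_in24* (47.6%, 47.6%, 47.6%, and 61.9%, beside 26.5%, 27.1%, 24.4%, and 26.8% of all genes). *Snmp1*, a membrane protein of pheromone-sensing neurons and their support cells, was lower in all 4 (-0.59 to -0.40), and so was *lush*, which encodes a pheromone-binding protein (-2.16 to -1.47). *ppk25*, a channel subunit of pheromone taste, was higher in all 4 (2.43 to 3.48), from at most 0.731 CPM in *yw*. The 3 were singled out after their values were seen. As markers of the antenna, 10 genes of the olfactory support cells, mostly odorant-binding proteins with *lush* among them, were measured. None was at 0 in all libraries of a strain, and their summed level ran from 106 to 899 CPM in *yw* (median 539), 29.5 to 752 in *tim_up126* (273), 104 to 500 in the *tim_up122* libraries (240), 97.8 to 467 in *tim_up10* (188), and 109 to 386 in *tim_in24* (247). Of the 10, 4, 4, 5, and 3 were called lower and none higher (40%, 40%, 50%, and 30%, beside the same shares of all genes called in either direction), with a median log2 fold change of -0.81, -0.81, -1.27, and -0.97. Their part in the lower receptor calls was not tested.

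Heads of both sexes were pooled, and genes of the female fat body (*Yp1*, *Yp2*, *Yp3*, and *fit*) also differed in level. Their sum had a median of 47789 CPM in *yw* (25573 to 64088), 51834 in *tim_up126*, 60687 in the *tim_up122* libraries, 69839 in *tim_up10* (53296 to 97857), and 56625 in *tim_in24*. Of the 4 genes, 1, 2, 3, and 1 were called higher and 1 lower in each strain. The male dosage compensation RNAs *roX1* and *roX2* summed to 463 to 1180 CPM in *yw*, with medians of 954, 816, 817, 975, and 669 CPM in the 5 strains, and 1, 1, 0, and 2 of them were called lower. The part of the mix of sexes in the receptor calls was not tested.

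Time of day was then examined as a cosine and a sine of 24 h. Over all 47 libraries, 5 of the 46 receptors had a daily rhythm (10.9%), where 31.4% of all genes did. The median fitted amplitude, called or not, was 0.17 on the log2 scale for the receptors and 0.09 for all genes. The lower share called is therefore not a lower amplitude. *Gr2a* had the largest amplitude of the 5, 1.45 on the log2 scale, with a fitted peak at ZT5.31 (edgeR adjusted p = 6.0e-11). In *yw* its mean was 2.63 CPM at ZT2, 3.10 at ZT6, 2.21 at ZT10, 0.807 at ZT14, 0.729 at ZT18, and 0.597 at ZT22. The same order of day over night held in the other strains, with 3.5 to 4.20 CPM at ZT2 and 0.260 to 0.859 at ZT22. *Gr2a* was called in each strain tested on its own, with amplitudes of 1.45 in *yw*, 1.65 in *tim_up126*, and 1.53 in *tim_up122*. The last call was lost without 1 library, ZT18 replicate 2 (adjusted p = 0.060). The gene (chromosome X, 1452430 to 1454177) shares 1186 of its 1562 exon bases with *futsch* on the same strand, a gene at 389 to 1123 CPM without a called rhythm (amplitude 0.09, adjusted p = 0.24).

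*Gr32a*, a receptor for bitter compounds and a male pheromone, had an amplitude of 0.51 with a peak at ZT3.74 (edgeR adjusted p = 5.0e-05). Over all strains it averaged 5.59 CPM at ZT2 and 2.52 at ZT18. *Or45b* peaked at ZT22.5 (0.37, edgeR adjusted p = 0.00016), with 7.76 CPM at ZT22 and 4.10 at ZT10 in *yw*. *asRNA:CR45281*, opposite it, also had a rhythm (0.33, peak ZT19.3). *Or46a* (0.56, ZT5.15) and *Or43b* (0.16, ZT4.78) completed the 5, and none of the 13 Ir was called. *Orco* (0.11), *Ir25a* (0.03), and *Ir76b* (0.06) did not pass.

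Within *yw* alone 3 receptors were rhythmic, *Or45b*, *Gr2a*, and *Ir85a* (0.28, ZT6.55), against 16.1% of all genes. In *tim_up126* it was 2, *Gr2a* and *Ir93a*, against 6.12%, and in *tim_up122* 1, *Gr2a*, against 7.32%. The *Ir85a* call was lost without *yw* ZT6 replicate 1, ZT6 replicate 2, or ZT18. The *Ir93a* call (0.95, adjusted p = 0.044) was lost on leaving out any of 10 of the 12 libraries. With 1 library per time point the rhythm was not tested in *tim_up10* and *tim_in24* alone. To ask whether a rhythm differed from *yw*, the interaction was tested. No receptor passed in *tim_up126*, where 1.55% of all genes did and 2 receptors had an unadjusted p under 0.05, and none passed in *tim_up122*, against 2.3% and again 2 at an unadjusted p under 0.05 (edgeR). *Ir85a* was the nearest, in *tim_up126* (adjusted p = 0.090), and passed with the replicate block (adjusted p = 0.019), with an effect of the number within each strain (0.011), and with no filter on low counts (0.0038). Its level followed the replicate number. It was 32.4 to 41.6 CPM in the number 1 libraries of *tim_up126* and 41.9 to 51.6 in those with number 2, and in *tim_up122* 38.1 to 55.6 and 26.8 to 37.8.

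**Figure D4:**
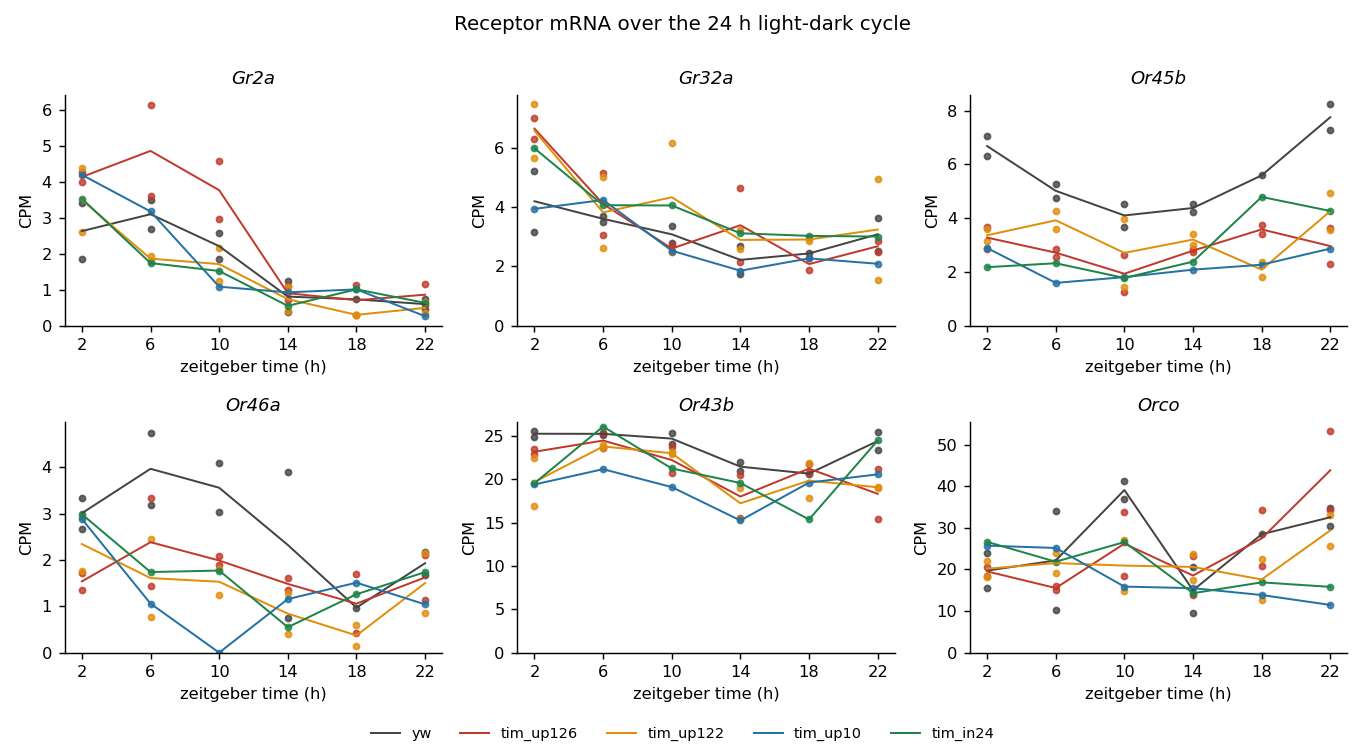
CPM (y axis) of 6 receptors against zeitgeber time (x axis, h), 1 point per library and a line through the mean of each strain. In each of the 5 strains the means of *Gr2a* at ZT2, ZT6, and ZT10 lie above those at ZT14, ZT18, and ZT22, and *Or45b* in *yw* (7.76 CPM at ZT22) lies above the other strains.

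Because *Orco* varied between libraries, 4 relations across the 47 libraries were computed on log2 CPM, with permutation p-values adjusted over the 4. *Orco* rose with *Snmp1* (Pearson's r = 0.71, Spearman's rho = 0.67, permutation p = 1e-05 for each, the smallest that the permutations can give; adjusted 2e-05 and 4e-05). Without the 2 libraries farthest from the median of *Orco* r was 0.71, and within strains it was 0.88 in *yw*, 0.75 in *tim_up126*, 0.54 in the *tim_up122* libraries, 0.75 in *tim_up10*, and 0.60 in *tim_in24*. *Orco* also rose with *Ir8a* (r = 0.67 and rho = 0.68, permutation p = 1e-05 and 2e-05, r = 0.70 without the 2 farthest libraries and 0.57 to 0.87 within strains), although *Ir8a* had at most 12 reads in a library. *Ir25a* and *Ir76b* had r = 0.53 and rho = 0.36 (permutation p = 0.00029 and 0.015, adjusted 0.00039 and 0.020). Without the 2 farthest libraries r was 0.25, so the pooled r rests largely on those samples. They were *tim_up10* ZT22 (4.69 CPM of *Ir25a*) and *tim_up126* ZT6 replicate 2 (5.93). With both still included, r within strains was 0.81, 0.75, 0.42, 0.81, and 0.13, and 0.64 with strain means removed. Spearman's rho within strains was 0.73, 0.51, 0.50, 0.37, and -0.09. *Orco* with *Ir25a* was weaker (r = 0.35, rho = 0.27, permutation p = 0.016 and 0.072, the same after adjustment; r = 0.26 without the 2 farthest libraries), and within *tim_in24* r was -0.02.

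**Figure D5:**
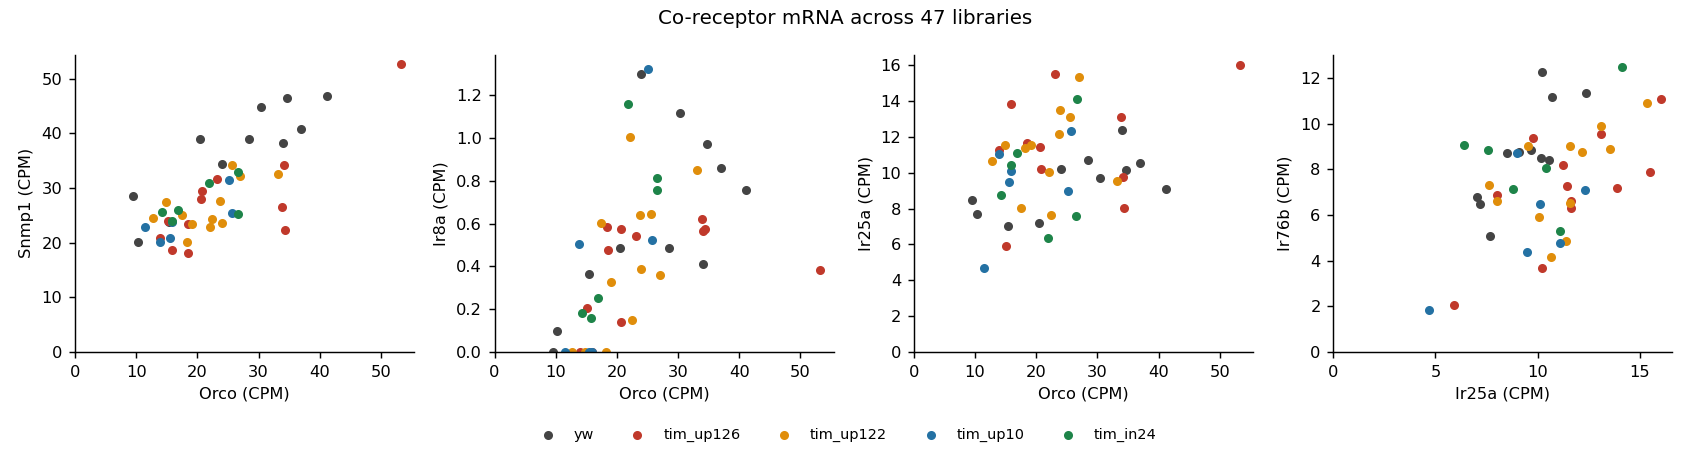
CPM of 1 gene against another (x and y axes) in each of 47 libraries, coloured by strain. *Orco* and *Snmp1* rise together (r = 0.71), *Orco* and *Ir25a* less so (r = 0.35), and for *Ir25a* and *Ir76b* r is 0.53, or 0.25 without the 2 libraries farthest from the median of *Ir25a*.

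Summed over each class, with each shared row counted once and *Orco* left out, the 16 Or measurements came to 40.7 to 69.6 CPM over the 47 libraries, the 14 Gr measurements to 29.1 to 47.8, and the 13 Ir to 92.8 to 142. The Ir sum had a median of 102 CPM in *tim_in24* and of 119 to 126 in the other strains, with overlapping groups. The mean sum was 101 CPM in *tim_in24* and 120 in *yw*, and *Ir85a* alone had a pooled level of 16.6 and 37.5 CPM.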

How the data were processed

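The authors mapped poly(A) RNA reads from fly heads to dm6. Their deposited counts are raw whole numbers for each gene symbol. Mapping and counting are credited to Tophat and ESAT in the paper but to STAR and FeatureCounts in the series description. Versions, the gene annotation, and the strand setting of the counter are not given in the sources used here. A second deposited table, of normalized values, was not used. All 47 sample columns were used, matched to samples by name, with groups set by genotype and time point from the labels. Replicate pairs differed by more than sampling noise (chi-square per degree of freedom at least 5.30 in 17 pairs), so each counted as a separate library. The paper calls the duplicates biological replicates. Neither it nor the labels say that they came from separate cultures, so p-values measure only the spread between these samples.

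The tests were run with edgeR 4.0.16 under R 4.3.3 (quasi-likelihood test after TMM, Benjamini-Hochberg over 10546 genes, threshold 0.05) and, as an alternative, DESeq2 1.42.0. A fit of all libraries had 1 coefficient per genotype and time point, an SE was the log2 fold change over the square root of its F statistic, and rhythms used a 24 h cosine and sine. For the relations, CPM was put on a log2 scale (prior count 2) and 100000 permutations were drawn. All tests were two-sided. Tests were checked on simulated data. Positions and overlaps come from an Ensembl annotation of dm6, in which 180 of 180 receptors matched. The genes named were the co-receptors, the 6 receptors of each class with the highest mean CPM, the sugar receptors that passed the count rule, in each comparison up to 10 with the smallest p among those called, and those at the edge of the count rule. Genes overlapping a named receptor, genes of the marker lists, and genes of the list of other olfactory and taste genes are named beside them. So is the carbon dioxide pair, which did not pass. The receptors, lists, and tests were chosen with earlier results of these data known. No sequences are shown. The alternatives were other normalizations and filters, DESeq2, an additive model, a replicate block, fewer strains in the fit, other forms of rhythm, and each library left out. Where the library left out was alone at its time point in its strain, that time point left the comparison over the day in both strains. Leaving out *yw* ZT18 and leaving out the ZT18 library of *tim_up10* or *tim_in24* were therefore not separate checks. Leaving out the 4 libraries with gut genes together, a replicate block within each strain, and the number 1 libraries alone were chosen after seeing the data.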

Additional observations from a re-analysis of the deposited data

Results flagged for a closer look

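The difference between the 2 large upstream deletions passed the test for 5 receptors, 10.9% of those tested, against 12% of all genes. None of the 5 passed with DESeq2 or in the number 1 libraries alone. Over the day, *tim_up126* against *tim_up122* gave log2 fold changes of 1.30 for *Gr64a*, 0.48 for *Gr64b* and for *Gr64c*, which are 1 measurement, 0.53 for *Ir51b*, and -1.09 for *Or22a* (edgeR, adjusted p under the threshold). *Gr64a* and *Or22a* entered the list through strains in which they were high.

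In strains with 6 libraries, 1 library stood apart from the rest of its strain in 4 of the 70 groups checked for the named receptors, where chance flags about 1 in 20. The 6 libraries of a strain are each from a different time point, so the check cannot tell time of day from a library that stands apart. *Gr32a*, whose rhythm over all libraries had its fitted peak soon after ZT2, was at 5.98 CPM in the *tim_in24* library at ZT2, and the next library was at 4.06. *Ir21a* was at 3.97 CPM in the *tim_up10* library at ZT10, with the next at 2.52. *Ir76a* was at 34.3 CPM in the *tim_in24* library at ZT22, with the next at 28.0. *Or43b* was at 15.3 CPM in the *tim_up10* library at ZT14, with the next at 19.1.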

How the results depend on the processing

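The 66 named calls, *Gr64b* and *Gr64c* counted apart, were read again under each alternative and with each library left out. Over the 675 pairs of a call and an alternative, 601 were kept, 74 lost, and 0 reversed. Over the 1430 pairs of a call and a library left out, 1305 were kept, 125 lost, and 0 reversed. Counts of receptors called moved by over 1.5 times as follows. DESeq2 called 6 in *tim_up126* (10 with edgeR), 7 in *tim_in24* (12), and 0 in *tim_up126* against *tim_up122* (5), where testing without a filter on low counts gave 3. Rhythmic receptors in *tim_up126* (2) were 1 with the filterByExpr rule, 4 with no filter, and 1 without the 4 libraries with gut genes. No receptor's rhythm differed between *tim_up126* and *yw*, but with no filter, with the replicate block, and with a replicate block within each strain 1 did, *Ir85a*. The number 1 libraries alone, in an additive model, gave 6 in *tim_up126* (13%, against 18.5% of all genes).

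Leaving out each library in turn gave 7 to 12 receptors called in *tim_up126* (lowest without *yw* ZT14 replicate 2), 14 to 17 in the *tim_up122* libraries, 8 to 13 in *tim_up10* (lowest without *yw* ZT18), 9 to 13 in *tim_in24* (lowest without *tim_in24* ZT14), and 3 to 7 in *tim_up126* against *tim_up122* (lowest without *tim_up126* ZT6 replicate 1 or *tim_up122* ZT18 replicate 2). Rhythmic receptors were 5 to 6 over all libraries, 2 to 4 in *yw*, 1 to 2 in *tim_up126*, and 0 to 1 in *tim_up122* (lowest without *tim_up122* ZT18 replicate 2). Same-numbered replicates did not deviate together (r from -0.14 to 0.11 in 16 pairs, 2 of them over 0.1), so the replicate block was an alternative only. Within *tim_up126* and *tim_up122* the numbers stood apart, as described above. Scaling to library totals alone turned the 5 higher and 5 lower calls in *tim_up126* into 4 and 8, and moved the median of all genes in *tim_up10* from -0.03 to -0.16.

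Within strains, r of *Orco* with *Snmp1* was 0.88 in *yw*, 0.54 in *tim_up122*, and 0.60 in *tim_in24*. That of *Orco* with *Ir25a* was 0.67 in *yw*, 0.18 in the *tim_up122* libraries, 0.59 in *tim_up10*, and -0.0168 in *tim_in24*. That of *Orco* with *Ir8a* was 0.80 in *yw*, 0.57 in *tim_up126*, and 0.87 in *tim_in24*. That of *Ir25a* with *Ir76b* was 0.81 in *yw*, 0.75 in *tim_up126*, 0.42 in the *tim_up122* libraries, 0.81 in *tim_up10*, and 0.13 in *tim_in24*. The *tim_up126* and *tim_up10* values each include 1 of the 2 farthest libraries. Over all libraries without those 2, r was 0.25. With single libraries left out, r ran from 0.67 to 0.75, 0.28 to 0.39, 0.65 to 0.72, and 0.39 to 0.58 in the same order, the last lowest without *tim_up10* ZT22. The causes of these changes were not tested. Depth limits the lowest receptors, since 3 counts were worth up to 1.72 CPM.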
